A study of Mus musculus with 27 samples.

Results

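The guanylate-binding proteins (GBPs) are a family of large GTPases, and their mouse genes Gbp2 to Gbp11 were followed here in mouse kidneys after warm ischemia. The members were chosen by gene symbol. The family was picked because its FPKM differed between kidneys with 16 min of ischemia and the sham kidneys. FPKM is a level corrected for transcript length and for sequencing depth. All values against the sham kidneys are therefore a description, and nothing is read from the calls made there. Of the 10 listed members, 9 have a row among the 19392 genes of the table, and Gbp11 was not analysed here. All 9 were above 0 FPKM in at least 3 kidneys and entered the fit, which covered 18188 genes.

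GBPs are produced in many cell types after exposure to interferons, above all interferon gamma, which acts through its receptor, the kinases Jak1 and Jak2 and transcription factors that include Irf1. The proteins assemble on vacuoles that hold microbes and on microbes in the cytosol, with the help of autophagy conjugation factors, and they take part in inflammasome activation. In the kidney they are known as part of the interferon response of tubular, endothelial and immune cells.

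The RNA came from the left kidney of 27 wild-type C57BL/6 mice in 9 groups of 3. The study's methods describe removal of the right kidney and clamping of the left renal pedicle on a warm plate. The times were 0, 16, 18, 20, 22, 24, 26, 28 or 30 min, and the kidneys were taken after 24 h. Whether the 0 min mice, labelled sham, also lost the right kidney is not stated separately. If they did, surgery, anaesthesia and the loss of the other kidney were shared by all groups, which then differed in the clamping. If they did not, ischemia and the loss of the other kidney cannot be told apart. The comparisons ask how the GBP genes stood in kidneys with and without ischemia and whether they varied with the length of ischemia. In whole-kidney RNA, fewer cells of a type and less RNA per cell cannot be told apart.

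The genes lie in 2 clusters of the genome (RefSeq annotation of GRCm38.p6). On chromosome 3, plus strand, Gbp5 spans chr3:142496934-142522344, Gbp7 spans chr3:142530336-142550151, Gbp3 spans chr3:142560016-142573213 and Gbp2 spans chr3:142620663-142638008. The minus strand of chromosome 5 holds Gbp8 at chr5:105012513-105053609, Gbp9 at chr5:105076464-105110357, Gbp4 at chr5:105115767-105139586, Gbp10 at chr5:105215699-105239533, Gbp6 at chr5:105270702-105295871 and Gbp11 at chr5:105323026-105346476. RefSeq calls Gbp11 a transcribed pseudogene.

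The promoters of the chromosome 3 members are shown because interferon signals reach genes through short motifs there. GAS (TTCNNNGAA) is the interferon gamma-activated site, and a short form of ISRE (GAAANNGAA) is the element bound by interferon regulatory factors. RefSeq windows for 4 members were matched, and both strands were searched from 250 bases before to 50 bases after the start. The lines below give the 250 bases before the start, plus strand, with capitals for either motif. The ISRE matches are on the minus strand, so the capitals show their reverse complement.
Gbp5, chr3:142496684-142496933: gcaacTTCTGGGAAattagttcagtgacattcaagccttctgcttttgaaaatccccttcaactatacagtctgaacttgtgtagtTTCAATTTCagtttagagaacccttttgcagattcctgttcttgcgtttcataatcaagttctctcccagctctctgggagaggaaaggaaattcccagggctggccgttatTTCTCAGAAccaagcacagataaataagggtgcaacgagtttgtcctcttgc
Gbp7, chr3:142530086-142530335: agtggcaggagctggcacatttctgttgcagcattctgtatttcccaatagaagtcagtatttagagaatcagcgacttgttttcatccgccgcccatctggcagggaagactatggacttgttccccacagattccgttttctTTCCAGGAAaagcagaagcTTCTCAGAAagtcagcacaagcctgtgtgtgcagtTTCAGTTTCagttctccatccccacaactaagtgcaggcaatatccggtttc
Gbp3, chr3:142559794-142560043: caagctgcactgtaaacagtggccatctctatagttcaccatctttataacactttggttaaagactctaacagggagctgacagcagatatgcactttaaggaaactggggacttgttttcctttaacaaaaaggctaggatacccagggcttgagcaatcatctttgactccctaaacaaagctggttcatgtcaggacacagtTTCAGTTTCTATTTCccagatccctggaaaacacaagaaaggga
Gbp2, chr3:142620413-142620662: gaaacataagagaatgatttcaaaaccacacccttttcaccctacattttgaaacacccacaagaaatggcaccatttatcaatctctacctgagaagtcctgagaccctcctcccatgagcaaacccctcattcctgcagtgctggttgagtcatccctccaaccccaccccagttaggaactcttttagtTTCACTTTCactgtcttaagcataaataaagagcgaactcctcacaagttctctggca
The windows of Gbp5 and Gbp7 each held 2 GAS and 1 ISRE. That of Gbp3 held 2 ISRE that overlap by 3 bases, and a second Gbp3 start, with its window at chr3:142560106-142560405, held neither motif. The window of Gbp2 held 1 ISRE, at bases -58 to -50 from the start. Of all 32851 mouse promoter windows searched, 8.3% held a GAS, 8.56% held an ISRE, 1.07% held both and 0.624% held an ISRE more than once. A match is a description of the letters and not a binding site.

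Parts of the family are alike enough in sequence to share reads. Of the 100-base words of the longest Gbp10 transcript in GENCODE M21, 56.1% also occur in Gbp6, and 30.9% of the Gbp6 words occur in Gbp10, so the split of reads between Gbp6 and Gbp10 is uncertain. The share of such words found in any other GBP gene was 4.36% for Gbp8, 2.88% for Gbp4, 1.74% for Gbp9, 0.929% for Gbp3, 0.435% for Gbp7 and 0 for Gbp2 and Gbp5. The GENCODE models of Gbp8, Gbp9 and Gbp4 overlap on 1 strand as whole gene spans, introns included, by 61910 bases for Gbp8 and Gbp9. Their RefSeq spans do not overlap, and they share far fewer words than Gbp6 and Gbp10. How reads were split among them is not known.

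Read counts were not used here, so the depth is unknown and the precision rests on the 3 kidneys per time. The summed FPKM of a kidney lay between 512000 and 554000. Markers of kidney tubule and podocyte summed to 4329 to 4845 FPKM in the sham kidneys and to 1338 to 5397 FPKM in the ischemic kidneys, and no gene of that list was at 0 in all kidneys. The sham kidneys differed among themselves, as described next, and every value that rests on them is given with that spread.

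The GBP genes were high in 2 of the 3 sham kidneys. In the third, 5 genes were within the range of the ischemic kidneys and 4 were above it, by far for Gbp6 and Gbp10. Summed over the 9 genes, sham replicates 1, 2 and 3 had 42.1, 828 and 497 FPKM. The 24 ischemic kidneys had between 9.61 and 32 FPKM, with a median of 21.1. Sham replicates 2 and 3 thus stood far apart from all other kidneys, while replicate 1 was a little above the highest ischemic kidney.

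Every member had this order. Replicate 2 was the highest and replicate 1 the lowest of the sham kidneys for 9 of 9 members, an order found in 10.4% of the tested genes. Replicates 2 and 3 were both over 3 times replicate 1 for 9 members and for 2.4% of the tested genes. They lay above all 24 ischemic kidneys for 9 members and for 5.56% of the tested genes. Replicate 1 lay within the ischemic range for 5 members (Gbp2, Gbp3, Gbp5, Gbp7 and Gbp9) and above it for 4 (Gbp4, Gbp6, Gbp8 and Gbp10). The pattern of these 5, with replicates 2 and 3 above all ischemic kidneys and replicate 1 within their range, was found in 1.74% of the tested genes. All 3 sham kidneys above all ischemic kidneys, the pattern of the other 4, was found in 3.74% of the tested genes.

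**Figure D1:**
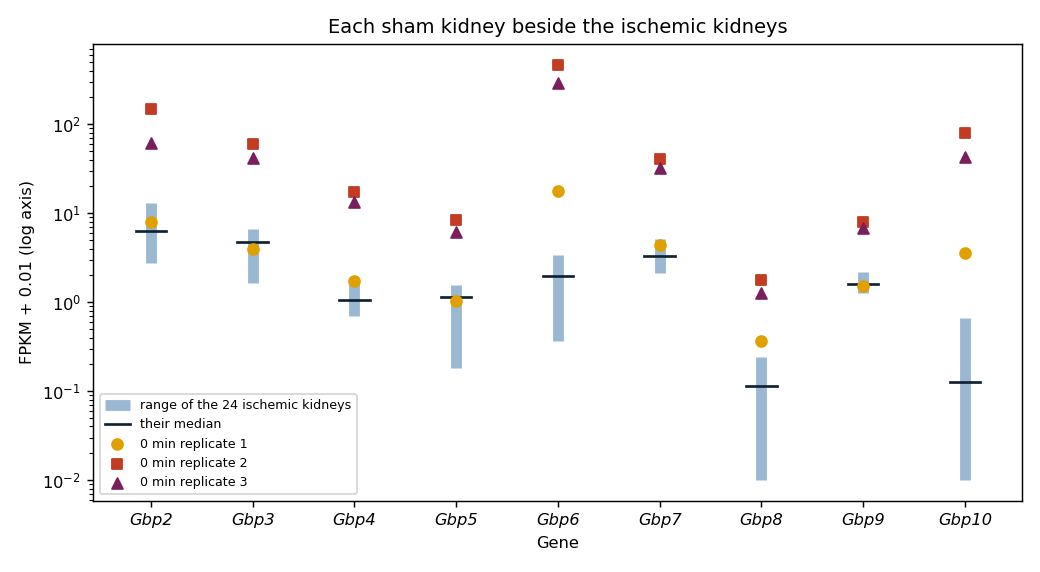
FPKM of each GBP gene (horizontal axis) on a log axis after adding 0.01, with 1 symbol for each of the 3 sham (0 min) kidneys, a bar for the range of the 24 ischemic kidneys and a line for their median. Replicates 2 and 3 sit above the bar for all 9 genes, and replicate 1 sits inside it for 5.

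The members with the widest span were the pair on chromosome 5 that share sequence, Gbp6 and Gbp10, both of which are known to protect macrophages against intracellular bacteria. Gbp6 had 17.7, 466 and 291 FPKM in sham replicates 1, 2 and 3, and 0.36, 1.96 and 3.37 FPKM as the lowest, median and highest of the ischemic kidneys. Gbp10 had 3.6, 78.7 and 43.0 FPKM in the sham kidneys and 0, 0.115 and 0.65 FPKM in the ischemic ones, with 4 kidneys at 0. For these genes even the lowest sham kidney was clearly above the ischemic kidneys, by 9.07 times the ischemic median for Gbp6 and 31.3 times for Gbp10.

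Among the chromosome 3 genes the lowest sham kidney could not be separated from the ischemic ones. Gbp2, a prenylated member that coats parasite vacuoles, had 7.97, 148 and 61.8 FPKM in the sham kidneys against 2.72, 6.22 and 13 FPKM as the ischemic lowest, median and highest. Gbp3 had 3.9, 60.1 and 41.6 FPKM against 1.65, 4.76 and 6.7 FPKM. Replicate 1 was 1.28 times the ischemic median for Gbp2 and 0.818 times for Gbp3, so it sat on either side of it.

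Gbp5, a prenylated member known for promoting assembly of the Nlrp3 inflammasome, had 1.01, 8.28 and 6.09 FPKM in the sham kidneys against 0.17, 1.12 and 1.55 FPKM. Gbp7, known for helping to assemble the NADPH oxidase on vacuoles, had 4.35, 40.5 and 32.2 FPKM against 2.12, 3.31 and 5.09 FPKM. For both genes replicate 1 was inside the ischemic range and the other sham kidneys were above it.

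The remaining genes of chromosome 5 are Gbp4, Gbp9 and Gbp8. Gbp4 had 1.71, 17.3 and 13.2 FPKM in the sham kidneys against 0.68, 1.04 and 1.66 FPKM, so replicate 1 was just above the highest ischemic kidney. Gbp9 had 1.49, 7.91 and 6.8 FPKM against 1.24, 1.58 and 2.17 FPKM, with replicate 1 inside the range. Gbp8, the lowest member in the sham kidneys, had 0.36, 1.77 and 1.25 FPKM against 0, 0.105 and 0.23 FPKM, and 1 ischemic kidney was at 0.

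Replicate 2 exceeded replicate 1 by 26.3 times for Gbp6, 21.9 for Gbp10, 18.5 for Gbp2, 15.4 for Gbp3, 10.1 for Gbp4, 9.31 for Gbp7, 8.2 for Gbp5, 5.31 for Gbp9 and 4.92 for Gbp8. Replicate 3 exceeded replicate 1 by between 3.47 times for Gbp8 and 16.4 times for Gbp6. The span within the sham group was therefore widest for Gbp6 and narrowest for Gbp8. Gbp2b, a further GBP gene of the chromosome 3 cluster that is not among the members, was barely present, with 0.05, 0.2 and 0.11 FPKM in the sham kidneys and at most 0.04 FPKM in the ischemic ones.

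**Figure D2:**
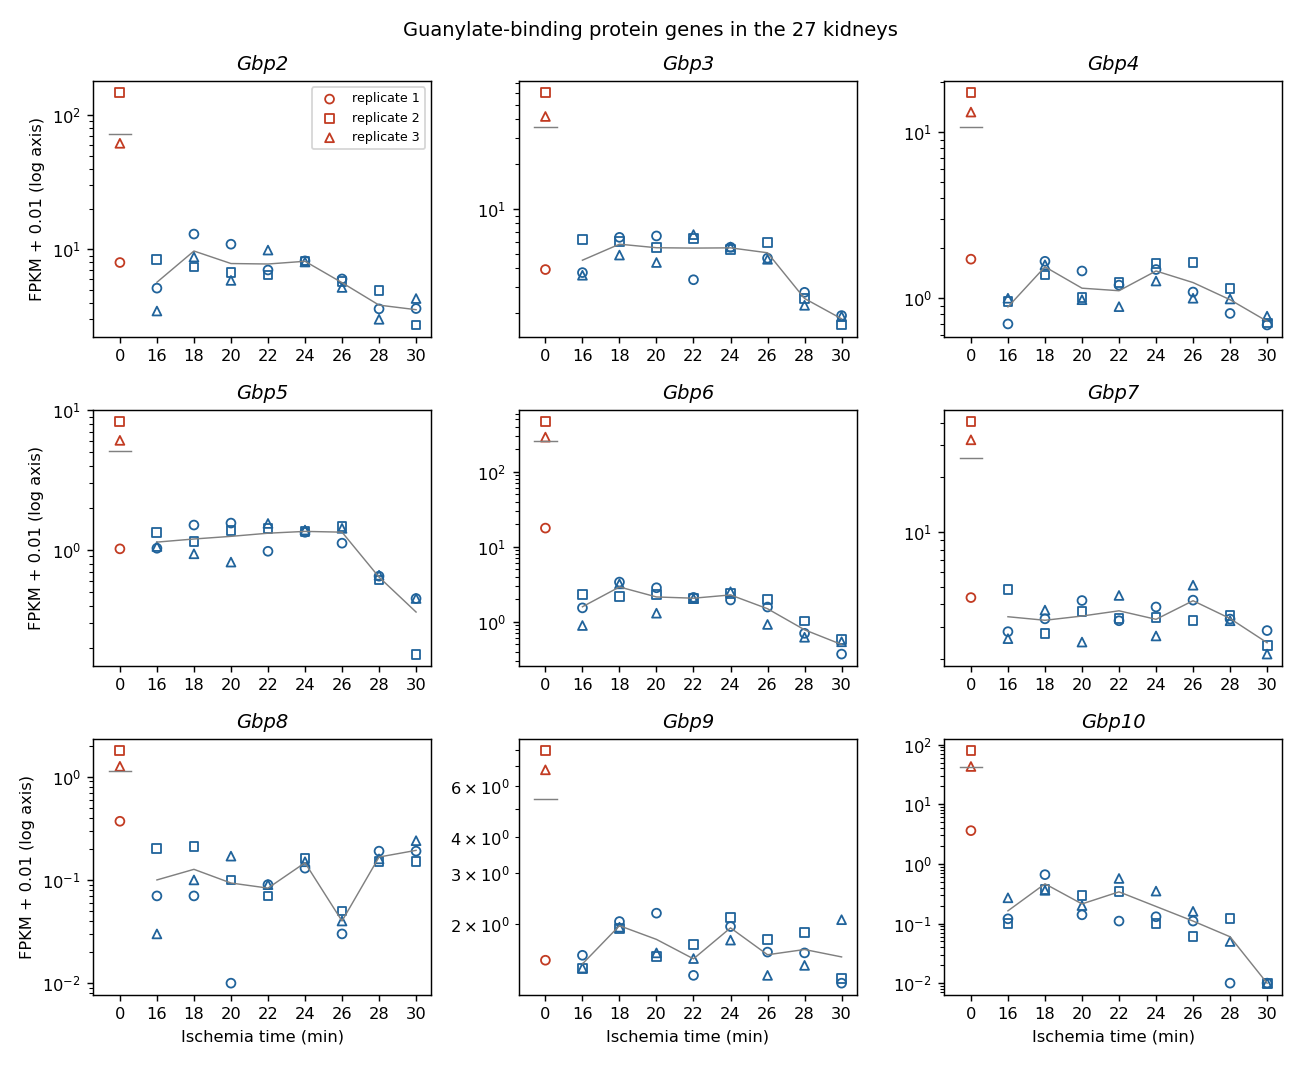
FPKM of the 9 GBP genes, 1 panel each, on a log axis after adding 0.01, against ischemia time in min (categories, not to scale). Red symbols are the 3 sham kidneys, blue symbols the ischemic kidneys, the marker shape gives the replicate number, and grey lines give the mean of 3 kidneys. In the panels of Gbp3 and Gbp5 all kidneys at 28 and 30 min lie below all kidneys from 16 to 26 min.

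In the fit over all kidneys, on log2(FPKM + 1), the members' estimates against 0 min were below 0 at every ischemia time. A gene was called when its log2 fold change exceeded 1 in size with an adjusted p-value under 0.05 (limma, Benjamini-Hochberg). Called lower were 9 of 9 members at 16 min, beside 0.979% of all tested genes, 8 at 18 min beside 1.09%, 9 at 20 min beside 0.962% and 9 at 22 min beside 1.2%. At 24 min 8 members were called beside 1.15%, at 26 min 9 beside 1.61%, at 28 min 8 beside 4.21% and at 30 min 8 beside 5.59%. These counts come from the contrast that led to the family being picked and nothing is read from them.

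The median log2 fold change of the members was -2.27 at 16 min, between -2.19 and -1.97 from 18 to 26 min, -2.26 at 28 min and -2.57 at 30 min. The median over all genes was between -0.01 and 0.00 in these comparisons. The most negative estimate was that of Gbp6, at -5.90 for 16 min and -6.64 for 30 min. The least negative was -1.02 for 16 min and -0.89 for 30 min, both of Gbp8. These sizes rested on sham replicates 2 and 3. With replicate 1 as the only sham kidney the median was -0.43 at 16 min and -0.77 at 30 min, and Gbp6 stood at -3.02 and -3.76, Gbp10 at -2.12 and -2.33, Gbp2 at -0.60 and -1.11, and Gbp3 at 0.02 and -0.89.

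Leaving out sham replicate 1, 2 or 3 gave the members a median log2 fold change of -3.21, -1.72 and -1.90 at 16 min. At 18 min it was -2.99, -1.26 and -1.64. These values too are a description of the contrast behind the choice of the family.

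The make-up of the GBP transcripts also differed. FPKM are per length, so levels of different genes can be set side by side. Gbp6 was the most abundant GBP in all 3 sham kidneys and made up 42.1%, 56.3% and 58.5% of the summed FPKM of the family in replicates 1, 2 and 3. From 16 to 26 min (18 kidneys) its share lay between 4.63% and 12.5%, with a median of 9.09%, and at 28 and 30 min (6 kidneys) between 3.19% and 6.44%, with a median of 5.02%. The shares of Gbp6 in the 3 sham kidneys thus lay far above all others, in replicate 1 as in replicates 2 and 3.

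The share of Gbp10 was also larger in the sham kidneys, at 8.54%, 9.5% and 8.66%, than from 16 to 26 min, at 0.229% to 2.03%. It was below the share of Gbp2 in each sham kidney. Gbp2 was the most abundant GBP in 21 of the 24 ischemic kidneys, with Gbp3 first in 2 of the others and Gbp7 in 1. Its share was between 24.3% and 40.6% in the ischemic kidneys and between 12.4% and 18.9% in the sham kidneys, so the ranges did not overlap. Gbp7 had 4.89% to 10.3% in the sham kidneys, 10.4% to 25.9% from 16 to 26 min and 17.2% to 26.3% at 28 and 30 min. Gbp9 had 0.955% to 3.54%, 5.4% to 9.85% and 11% to 16.7% in the same sets of kidneys. The share of Gbp9 was larger in every kidney at 28 and 30 min than in any kidney at a shorter time. A share also depends on the levels of the other members. The mean level of Gbp9 itself was 1.56, 1.62 and 1.53 FPKM at 26, 28 and 30 min.

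**Figure D3:**
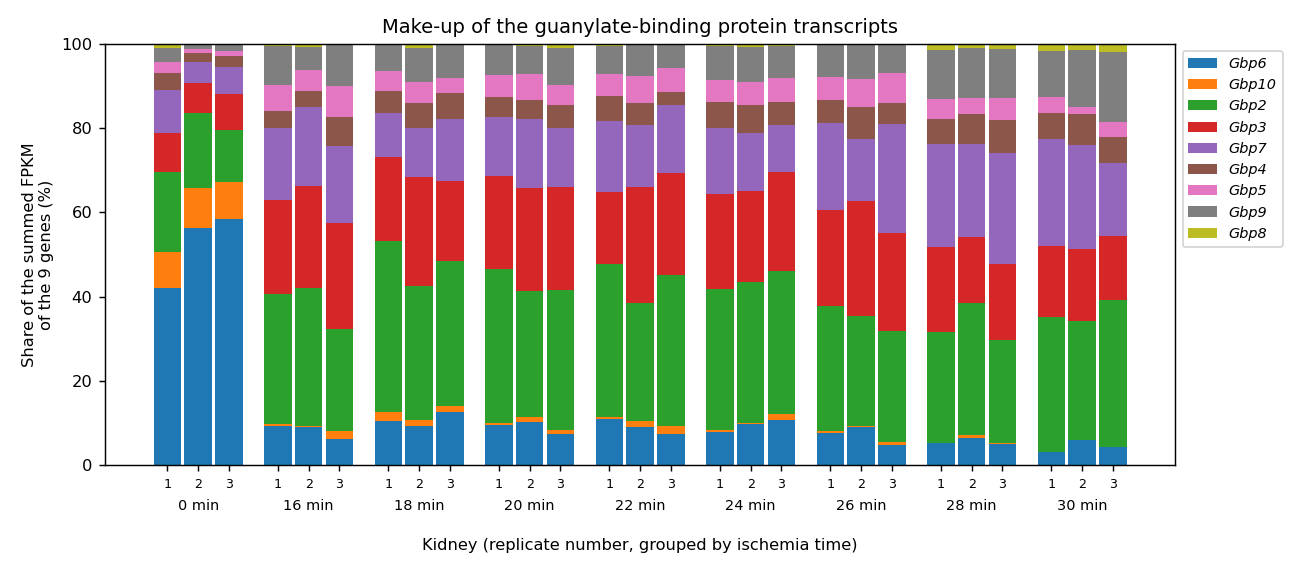
Share of each GBP gene in the summed FPKM of the 9 genes (percent, stacked from 0 to 100) in each of the 27 kidneys, grouped by ischemia time and numbered by replicate. Gbp6, drawn at the base, fills 42.1% to 58.5% of the sham bars and stays at or below 12.5% in every ischemic kidney.

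By mean level the order at 0 min was Gbp6, Gbp2, Gbp10, Gbp3, Gbp7, Gbp4, Gbp9, Gbp5 and Gbp8. At 28 and 30 min it was Gbp2, Gbp7, Gbp3, Gbp9, Gbp4, Gbp6, Gbp5, Gbp8 and Gbp10. In the sham group every neighbouring pair of this order overlapped in range. At 30 min Gbp2 and Gbp7, Gbp3 and Gbp9, Gbp6 and Gbp5, and Gbp5 and Gbp8 overlapped as neighbours and the other neighbours did not. Gbp10 moved from the third place to the last, with 0 FPKM in all 3 kidneys at 30 min.

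Between ischemia times, part of the family had lower levels at 28 and 30 min than from 16 to 26 min. The choice of the family used the 16 min kidneys beside the sham kidneys. Comparisons and slopes that include 16 min are therefore not fully independent of that choice. Within 16 to 26 min the means also moved, from 5.64 to 9.71 FPKM for Gbp2 and from 1.48 to 2.9 FPKM for Gbp6. Gbp4 was at 0.69, 0.95 and 0.99 FPKM at 16 min and 1.66, 1.37 and 1.58 FPKM at 18 min. Gbp9 was at 1.55, 1.39 and 1.4 FPKM at 16 min and 2.03, 1.92 and 1.94 FPKM at 18 min. These 2 times were not compared over all tested genes, and the tests of any difference among 16 to 26 min called 0 members. For Gbp3 the lowest, median and highest kidney had 3.33, 5.5 and 6.7 FPKM from 16 to 26 min. The kidneys at 28 min had 2.74, 2.49 and 2.24 FPKM and those at 30 min 1.91, 1.65 and 1.89 FPKM. All 6 kidneys of the longest times lay below all 18 others, and the 30 min kidneys lay below the 28 min kidneys.

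Gbp5 had the same arrangement, with 0.81, 1.33 and 1.55 FPKM as the lowest, median and highest from 16 to 26 min. At 28 min it had 0.64, 0.6 and 0.65 FPKM and at 30 min 0.44, 0.17 and 0.44 FPKM. Gbp3 and Gbp5 were the members whose groups were fully separated in this way. Of the tested genes, 7.19% were lower in all kidneys at 28 and 30 min than in all kidneys from 16 to 26 min, and 7.54% were higher.

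Gbp6 had 0.88, 2.06 and 3.37 FPKM as the lowest, median and highest from 16 to 26 min, 0.69, 1.01 and 0.61 FPKM at 28 min and 0.36, 0.57 and 0.53 FPKM at 30 min. The 28 min kidneys touched the lower end of the shorter times and the 30 min kidneys were below it. Gbp2 had 3.46, 7.2 and 13 FPKM from 16 to 26 min, 3.59, 4.9 and 3 FPKM at 28 min and 3.61, 2.72 and 4.29 FPKM at 30 min. Its groups overlapped at the level of the lowest 16 min kidney.

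Gbp10 was close to 0 throughout, with 0.05 to 0.65 FPKM from 16 to 26 min, 0, 0.11 and 0.04 FPKM at 28 min and 0 FPKM in all 3 kidneys at 30 min. The number of reads behind values this low is unknown. Gbp7 was at 4.18 ± 0.925 FPKM at 26 min, 3.33 ± 0.107 at 28 min and 2.45 ± 0.376 at 30 min (SD, n = 3 each). Gbp9 was at 1.56 ± 0.222, 1.62 ± 0.218 and 1.53 ± 0.46 FPKM, and Gbp4 at 1.23 ± 0.346, 0.97 ± 0.165 and 0.717 ± 0.0473 FPKM at the same times. Gbp8 went the other way in its means, with 0.03 ± 0.01, 0.157 ± 0.0208 and 0.183 ± 0.0451 FPKM. Its values were close to 0 too, and its 26 min mean was the lowest of the ischemia times. At 24 min Gbp8 was at 0.12 to 0.15 FPKM and at 18 min at 0.06 to 0.2 FPKM.

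The slope of log2(FPKM + 1) per min over the 24 ischemic kidneys was below 0 with an adjusted p-value under 0.05 for 5 of 9 members and above 0 for none of them, beside 19% of all tested genes called lower. The slope was -0.068 ± 0.015 per min for Gbp6 (SE, limma, adjusted p = 0.00113), -0.068 ± 0.016 for Gbp3 (adjusted p = 0.00155) and -0.062 ± 0.018 for Gbp2 (adjusted p = 0.00738). It was -0.036 ± 0.011 for Gbp5 (limma, adjusted p = 0.00908) and -0.024 ± 0.0069 for Gbp10 (adjusted p = 0.00667). The members not called were Gbp4 (adjusted p = 0.344), Gbp7 (0.559), Gbp9 (0.897) and Gbp8 (0.11), whose slopes lay between -0.010 and 0.0071 per min. The median slope of the members was -0.024 and that of all genes 8e-04 per min. The members' median was -0.042 with TPM and -0.072 with a pseudocount of 0.1 FPKM.

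These slopes rested on the longest times. Without the 30 min kidneys 0 members were called by limma, 3 had an unadjusted p-value under 0.05 and 4134 genes were called. Without the 28 and 30 min kidneys 0 members were called, 0 had an unadjusted p-value under 0.05, 2 genes were called, and the slopes of Gbp3 and Gbp5 were 0.0061 and 0.016 per min.

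**Figure D4:**
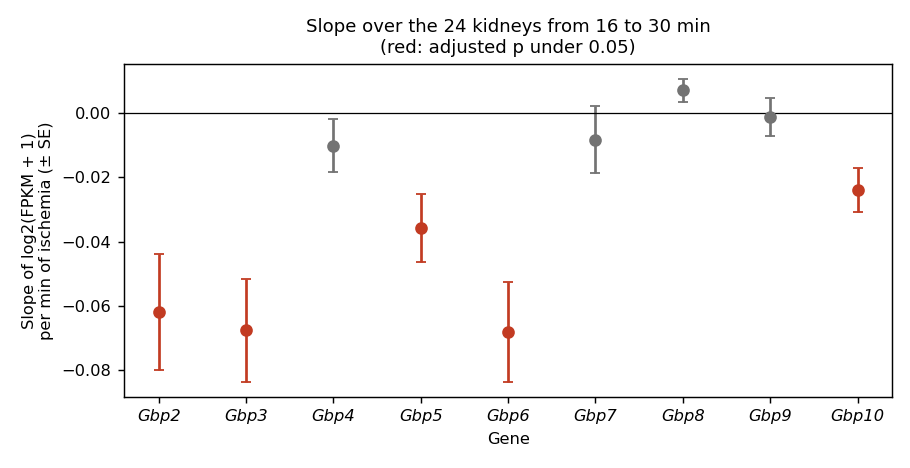
Slope of log2(FPKM + 1) per min of ischemia (vertical axis, ± SE) for each GBP gene over the 24 kidneys from 16 to 30 min, in red where the adjusted p-value of limma was under 0.05. Gbp2, Gbp3, Gbp5, Gbp6 and Gbp10 lie below 0 in red, from -0.068 to -0.024, and the other members lie near 0.

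Single pairs of ischemia times gave no call for the members in the fit over all 27 kidneys. In limma 0 of 9 members were called at 28 against 26 min, beside 1.5% of all genes, with a median log2 fold change of -0.23. The counts were also 0 at 30 against 28 min beside 1.05% (median -0.23), at 30 against 16 min beside 6.23% (median -0.30) and at 26 against 16 min beside 0% (median 0.06), where 1717 genes had an unadjusted p-value under 0.05. In each of these pairs 0 members had an unadjusted p-value under 0.05. The largest change between 30 and 16 min was that of Gbp3, at -0.91 ± 0.53 on the log2 scale (SE, limma, adjusted p = 0.193). A test of any difference among the 8 ischemia times called 0 members beside 41% of all genes, and among 16 to 26 min 0 members beside 0%, where 866 genes had an unadjusted p-value under 0.05. In both, 0 members had an unadjusted p-value under 0.05 in this fit, which includes the sham kidneys. With a pseudocount of 0.1 FPKM in place of 1, the medians were -0.45 at 28 against 26 min, -0.42 at 30 against 28 min and -0.60 at 30 against 16 min, and Gbp5 was called in the last of these, at -1.50 on the log2 scale (limma, adjusted p = 0.0118).

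Groups nonetheless separated for part of the family. At 30 against 16 min, 4 members (Gbp3, Gbp5, Gbp6 and Gbp10) were lower in all 3 kidneys and 0 higher, where 18.8% of the tested genes were all lower. At 28 against 26 min, 3 members were all lower (Gbp2, Gbp3 and Gbp5) and 1 all higher (Gbp8), beside 16.4% and 20% of the tested genes. At 30 against 28 min, 5 members were all lower (Gbp3, Gbp4, Gbp5, Gbp6 and Gbp7), beside 16.4%. An exact permutation test of 3 kidneys against 3 cannot go below p = 0.1.

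The spread around the group means was larger with the sham kidneys in the fit. The residual SD of Gbp6 on the log2 scale was 0.876 with all 27 kidneys and 0.242 with the 24 ischemic kidneys. For Gbp3 it was 0.684 and 0.232, for Gbp2 0.735 and 0.31, for Gbp5 0.417 and 0.148, and for Gbp10 0.724 and 0.135. In a fit without the sham kidneys, the test of any difference among the 8 ischemia times called 6 of 9 members, beside 39.9% of all genes. Their adjusted p-values (limma) were 8.36e-05 for Gbp3, 1.48e-04 for Gbp5, 1.66e-04 for Gbp6, 0.00227 for Gbp2, 0.00488 for Gbp4 and 0.0148 for Gbp10, with Gbp8 at 0.0631, Gbp9 at 0.168 and Gbp7 at 0.352. Among 16 to 26 min that fit called 0 members by limma, and 4 had an unadjusted p-value under 0.05 (Gbp4, Gbp6, Gbp9 and Gbp10), of which the smallest was 0.00954 for Gbp4 (adjusted p = 0.889).

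In the pairs of times the fit without the sham kidneys also called 0 members, since no member's estimate exceeded 1 in size on the log2(FPKM + 1) scale, but several adjusted p-values (limma) were under 0.05. At 30 against 16 min these were Gbp5, at -0.66 ± 0.12 (SE, adjusted p = 1.93e-04), Gbp3, at -0.90 ± 0.18 (adjusted p = 5.86e-04), and Gbp6, at -0.74 ± 0.19 (adjusted p = 0.00398). At 28 against 26 min they were Gbp3, at -0.75 ± 0.18 (limma, adjusted p = 0.00801), Gbp5, at -0.48 ± 0.12 (adjusted p = 0.00905), and Gbp8, at 0.18 ± 0.055 (adjusted p = 0.027). At 30 against 28 min and at 26 against 16 min no member had an adjusted p-value under 0.05 in limma, and those with an unadjusted p-value under 0.05 were Gbp4 and Gbp5 in the former and Gbp4 in the latter. The share of all genes with an adjusted p-value under 0.05 in these pairs is not given here. Whether the members exceed that share is therefore not known. In the fit with the sham kidneys, 8549 of 18188 genes had an unadjusted p-value under 0.05 (limma) at 30 against 16 min. At 28 against 26 min 5635 genes did.

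Genes of interferon signalling had the division of the sham kidneys, but not all of them. Irf1 had 8.82, 76.6 and 63.9 FPKM in sham replicates 1, 2 and 3, and 5.06, 9.66 and 15 FPKM as the lowest, median and highest of the ischemic kidneys. Its replicate 1 was within the ischemic range and the other sham kidneys were far above it. Transcripts of interferon gamma itself (Ifng) were at 0.11, 0.1 and 0.05 FPKM in the sham kidneys and at 0 to 0.1 FPKM in the ischemic ones, with no such division.

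By list, sham replicates 2 and 3 lay above all ischemic kidneys for 8 of 13 genes of interferon gamma, its receptor and its signal, and for all 8 replicate 1 was within the ischemic range. The same held for 12 of 13 other interferon-gamma-induced genes, 5 of them with replicate 1 within the range, and for 12 of 12 type I interferon-induced genes, 9 of them with replicate 1 within it. It held for 0 of 8 partners in the inflammasome and pyroptosis, 1 of 8 autophagy conjugation factors and 0 of 5 prenylation genes. The prenylation genes serve the attachment and the further processing of the lipid anchor of some GBPs. Over all tested genes, 5.56% had sham replicates 2 and 3 above all ischemic kidneys and 1.74% had this with replicate 1 within the range.

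**Figure D5:**
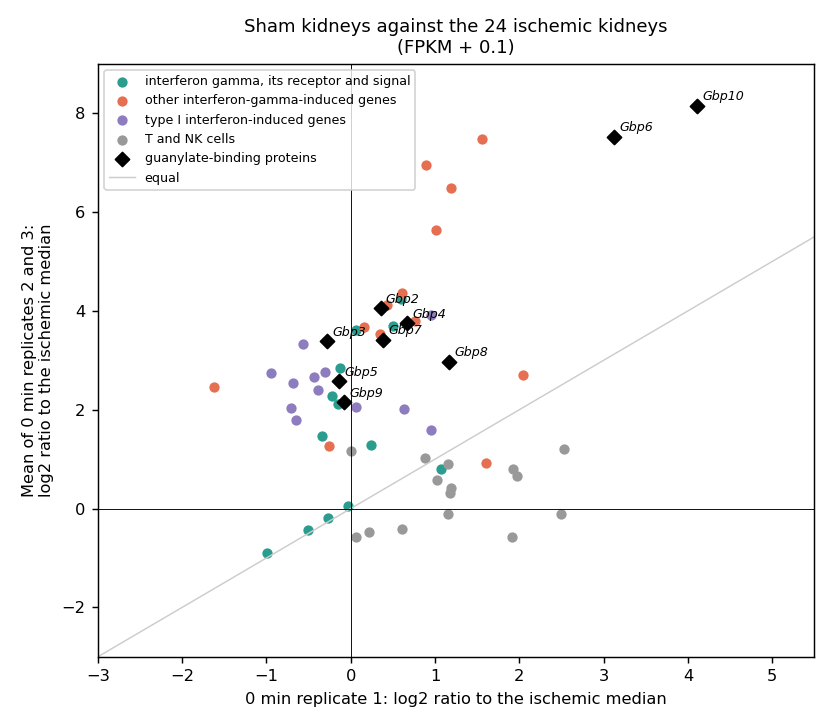
Log2 ratio of sham replicate 1 (horizontal axis) and of the mean of sham replicates 2 and 3 (vertical axis) to the median of the 24 ischemic kidneys, on FPKM + 0.1, for the 9 GBP genes (black), 3 lists of interferon genes and markers of T and NK cells, with a grey line where both ratios are equal. All 9 GBP genes lie above the line, most interferon-induced genes do too, and most T and NK markers lie on or below it.

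With the length of ischemia, the interferon lists moved in part with the GBPs. The slope fell in 7 of 13 interferon-gamma-induced genes and rose in 0. These were the immunity-related GTPases Igtp (-0.070 ± 0.017 per min, SE, limma, adjusted p = 0.00239), Irgm2 (-0.048 ± 0.013, adjusted p = 0.00358), Iigp1 (-0.057 ± 0.016, adjusted p = 0.00687), Tgtp1 (-0.079 ± 0.022, adjusted p = 0.00504) and Tgtp2, and the chemokines Cxcl9 and Cxcl10. The receptor chains rose, at 0.045 ± 0.0098 per min for Ifngr1 (limma, adjusted p = 7.33e-04) and 0.062 ± 0.013 for Ifngr2 (adjusted p = 5.40e-04), as did Jak1 and Irf8. In all, 4 of 13 genes of the interferon gamma list rose, and Stat2 was among those that fell. Irf1 was not called, at 0.0020 ± 0.012 per min.

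Among type I interferon-induced genes 7 of 12 fell in slope and 2 rose, Ifit2 and Oasl1. Oasl1 was the gene of the interferon lists called at 30 against 16 min, at 1.18 ± 0.46 on the log2 scale (SE, limma, adjusted p = 0.0469). That call was lost without the filter on low values, with a replicate block and in a fit of the 2 groups alone. Of the partners of GBPs, Il1b rose among 8 inflammasome and pyroptosis genes. Among 8 autophagy factors Atg7 and Atg16l1 rose and Gabarap and Gabarapl1 fell, and among 5 prenylation genes Fnta, Fntb and Rce1 rose. Over all tested genes, 3447 were called lower and 4428 higher in slope. Without the 30 min kidneys, 0 of 13 interferon-gamma-induced and 0 of 12 type I interferon-induced genes were called in slope by limma, Stat2 was not called either, and Ifngr1, Ifngr2, Jak1 and Irf8 still were.

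Markers of other cells were measured beside these results, and their part in them was not tested. The 15 T and NK cell markers in the table summed to 15.03, 6.44 and 6.7 FPKM in sham replicates 1, 2 and 3, so the kidney with the lowest GBP levels had the highest sum. Macrophage and dendritic cell markers (10 genes) summed to 55.0, 60.6 and 65.5 FPKM. B cell markers (4 genes) summed to 1.07, 0.89 and 0.69 FPKM neutrophil markers (5 genes) to 3.06, 8.08 and 9.97 FPKM and endothelial markers (6 genes) to 84.5, 80.5 and 98.2 FPKM. None of these lists had a gene at 0 in all kidneys.

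Along ischemia, the T and NK markers summed to 4.15 to 11 FPKM from 16 to 26 min, 2.69 to 4.11 at 28 min and 2.14 to 6.64 at 30 min, and 6 of 15 fell in slope (Cd3g, Cd4, Cd8a, Cd8b1, Gzmb and Nkg7). Neutrophil markers summed to 2.36 to 10.7 FPKM, 12.4 to 16.2 and 20.2 to 27.5 at these times, and tubule and podocyte markers to 2973 to 5397, 1687 to 2056 and 1338 to 3390 FPKM. The lower GBP levels at 28 and 30 min thus came in kidneys with lower T and NK and tubule markers and higher neutrophil markers.

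The genes whose pattern was most like the mean of the GBP members, by the mean absolute difference of standardized values over 27 kidneys, were Ifi47 (0.0935), Iigp1 (0.0937), Irgm2 (0.104), Gm4841 (0.105), Nlrc5 (0.107), Igtp (0.112), Tgtp1 (0.118) and Gm4951 (0.127). The median of all other genes was 0.998, and the members themselves had 0.106 for Gbp6 to 0.29 for Gbp8. That measure rests on the same sham replicates 2 and 3. Over the 24 ischemic kidneys the nearest included Irgm2 (0.3), Igtp (0.311), Iigp1 (0.321), Tgtp1 (0.329), Bscl2 (0.398), Ifi47 (0.402) and Mrnip (0.414), with a median of all other genes of 1.15. In these kidneys the members ranged from 0.312 for Gbp6 and 0.348 for Gbp2 to 0.837 for Gbp7 and 1.30 for Gbp8, so Gbp7 and Gbp8 followed the common pattern least.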

How the data were processed

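The authors deposited FPKM per gene symbol and kidney, on a linear scale and rounded to 2 decimals. The submitters' processing notes name Bowtie2, RSEM, DESeq2 and GRCm38.p6, without versions, and the annotation is not given in the sources used here. Expected counts behind the FPKM were not used here, so depth is unknown. The labelled ischemia time gave the groups, and replicates are separate mice.

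A pseudocount of 1 FPKM was added, and log2 values were quantile normalized across all 27 kidneys. Genes at 0 FPKM in all but 2 or fewer kidneys were dropped, and the 18188 others were fitted in limma 3.58.1 (R 4.3.3), each group having its own mean, with p-values adjusted by Benjamini-Hochberg over all of them. A call between 2 times needed a log2 fold change beyond 1 in either direction and an adjusted p under 0.05, and an F test or a slope an adjusted p under 0.05. Fold changes on this scale understate those of low genes. The slope used the 24 ischemic kidneys. The fits were tested on simulated data. The members and gene lists were chosen with earlier results of these data known. Named are all members, Ifng, Irf1, list genes called between ischemia times or by slope, and the 8 genes most like the members. Gbp2b was named as a further GBP symbol. Some items under this rule are not reported here.

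Alternatives were pseudocounts of 0.1 and 0.01 FPKM, no quantile normalization, rescaling to a constant sum (TPM), a filter of at least 1 FPKM in 3 kidneys (12929 genes), no filter, a trend in eBayes, a replicate block, fits of fewer groups and leaving out each replicate. Slopes without the longest times, pair tests without the 0 min kidneys, and 0 min replicate 1 alone were added after seeing the data. Positions and promoters are from RefSeq GRCm38.p6, transcript words from GENCODE M21. Figures were drawn with matplotlib 3.10.9 (Python 3.11.15).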

Additional observations from a re-analysis of the deposited data

How the results depend on the processing

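The 5 slope calls were kept, for the same genes, under each planned setting over the 24 ischemic kidneys. Leaving out 1 kidney gave 5 to 6 called members: Gbp8 was added, with a rising slope, without 16 min replicate 2 or 18 min replicate 2. The count was 0 without the 30 min kidneys and 0 without the 28 and 30 min kidneys, where the median slope turned to 0.0026 per min, that of Gbp5 to 0.016 and that of Gbp3 to 0.0061. TPM gave a median slope of -0.042.

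Pseudocounts mattered for low genes, by construction. With 0.1 FPKM the members' medians were -0.45 at 28 against 26 min, -0.42 at 30 against 28 min, -0.60 at 30 against 16 min and -0.072 per min, with 1 member called at 30 against 16 min (Gbp5) and 1 among the 8 ischemia times. With 0.01 FPKM they were -0.56, -0.43, -0.62 and -0.073, with 2 (Gbp5 and Gbp10) and 2 called. Without the 0 min kidneys 6 members were called among the 8 ischemia times. With 0 min replicate 1 alone the medians were -0.43 (16 min), -0.39 (20 min), -0.32 (22 min) and -0.77 (30 min). Leaving out 1 kidney gave -3.21 to -1.72 at 16 min and -3.49 to -2.03 at 30 min, and 0 calls between ischemia times in each case. A filter of at least 1 FPKM removed Gbp8, and Gbp10 passed it only through the sham kidneys. As TPM, sham replicate 2 was 4.93 to 26.3 times replicate 1.

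Same-numbered kidneys did not pair: the correlation of deviations was -0.416 to 0.48 over 108 pairs of them, and 8 of 27 kidneys were nearest their own number. With the replicate block 0 members were called in the pairs of times and 5 in slope, so no call of a member changed. Depth is unknown, and 3 kidneys a time limit the precision.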
